A study of Mus musculus with 4 samples.

Results

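Arginine sits at a branch point of macrophage metabolism, and 10 mouse genes of this branch point were examined. They encode 2 arginases (Arg1, Arg2), inducible nitric oxide synthase (Nos2), the enzymes that remake arginine from citrulline (Ass1, Asl), and ornithine aminotransferase (Oat). The remaining members make or break down polyamines (Odc1, Srm, Sms, Sat1). Members were chosen by gene symbol, and a probe set counted only where the platform annotation gave it exactly 1 symbol. By that rule 9 of the 10 genes were measured, each by 1 probe set, out of 22180 genes in all; Sms was not analysed here.

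The study asked what all-trans retinoic acid does to transcript levels when Ly6C-high monocytes of mouse bone marrow are pushed toward dendritic cells. Of the 4 arrays, 2 held cells given 100 nM retinoic acid and 2 held cells given the solvent DMSO, both for 24 h from the start of culture. All cultures contained 20 ng per ml of GM-CSF and as much interleukin 4, and all cells were sorted from marrow pooled from 3 mice, whose strain and age are not given in the sources used here. The labels do not say whether replicates were separate cultures, so p-values cover the scatter of these arrays alone, and that scatter may be technical.

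Arginase splits arginine into ornithine and urea, whereas nitric oxide synthase turns the same amino acid into citrulline and nitric oxide. Ornithine feeds the polyamines putrescine, spermidine and spermine, small charged molecules that bind nucleic acids and are needed for growth, and it can also be turned into proline or glutamate. In mouse macrophages, Arg1 is a classical gene of interleukin 4 exposure and Nos2 one of bacterial products and interferon gamma, so the pair is widely used to describe opposite activation states.

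Values are log2 intensities from the authors' RMA table, and differences are means with retinoic acid minus means with DMSO. Array medians lay between 80.0 and 81.8 in intensity. A mean log2 intensity of 6.35, the 95th percentile over 1405 olfactory and vomeronasal receptor probe sets, served as a guide to dim levels, since the files give no detection calls. Levels of different probe sets are not comparable with one another, because probes differ in brightness. All 9 monocyte and macrophage markers, among them Csf1r, Ly6c2 and Ccr2, lay above the dim level in both groups, and all 5 NK cell markers lay under it in both. Other lists were mixed. Above the dim level in both groups were 2 of 5 T cell, 1 of 4 B cell and 1 of 2 erythroid markers. So were 4 of 7 markers of basophils, mast cells and eosinophils and 2 of 4 of plasmacytoid dendritic cells. Of 9 neutrophil genes, 8 lay above the dim level in both groups, with Mpo at 11.52 and 11.57 with retinoic acid and at 11.67 and 11.70 with DMSO. The remaining gene, Ly6g, lay about at the dim level, with means of 6.42 with retinoic acid and 6.33 with DMSO. Known retinoic acid targets, listed with earlier results of these data known, served as a check of the labels, and all 5 rose. Cyp26a1 rose by 4.14 ± 0.14 on the log2 scale (SE, limma adjusted p = 0.00282). The DMSO means of Cyp26a1 and Rarb lay under the dim level.

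Arg1 rose with retinoic acid, and none of the 8 other measured members passed the test in either direction. Over all genes, 3.07% passed (681 of 22180; 284 rose and 397 fell), as did 2.09% of all 39720 probe sets tested, and the single call is read here as a value of Arg1, not of the group. The median log2 difference was 0.06 over the 9 members and 0.01 over all genes. At an unadjusted p under 0.05 there were 3 members (Arg1, Ass1 and Sat1), against 15.1% of all genes. The groups did not overlap in 7 of the 9 members, 5 with retinoic acid above and 2 below, against 48.0% of all genes (25.0% above and 23.0% below). In such bulk RNA, a change in the share of cells expressing a gene cannot be told apart from a change in RNA per cell.

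**Figure D1:**
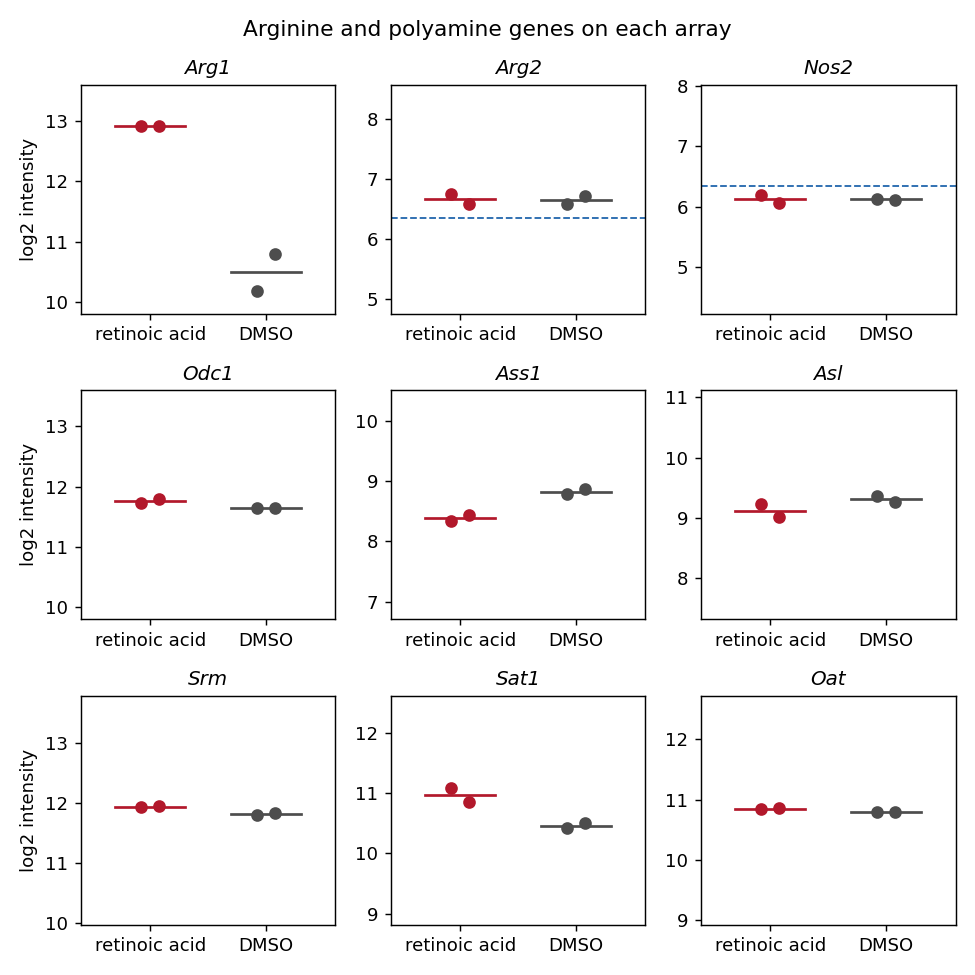
Log2 intensity of the 9 measured genes on each array, with retinoic acid (red, left) and DMSO (grey, right); points are arrays, short lines are group means, every panel spans the same number of log2 units, and the dashed blue line is the dim level of 6.35 where it falls in range. The retinoic acid arrays stand clear of the DMSO arrays for Arg1, by a smaller step for Sat1 and Ass1, and Nos2 lies under the dim level on every array.

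Arg1, the cytosolic arginase, was read at 12.92 and 12.92 with retinoic acid, against 10.17 and 10.80 with DMSO. In linear intensity these were 7751.5 and 7732.5 with retinoic acid and 1154.4 and 1785.4 with DMSO. Both retinoic acid arrays were high and nearly equal, while the DMSO arrays differed from each other by 0.63, a gap that only 0.361% of genes exceeded in that group, where the median gap was 0.09. The groups were still separated by 2.11 between the lowest retinoic acid and the highest DMSO array. The group means were 12.92 ± 0.00 with retinoic acid and 10.49 ± 0.44 with DMSO (SD, n = 2 each). The difference was 2.43 ± 0.22 (SE; 95% interval 1.86 to 3.0; limma adjusted p = 0.0172), which is 5.39-fold with an interval of 3.64 to 7.99. Set against each DMSO array alone, the mean with retinoic acid was 6.71-fold higher than DMSO replicate 1 and 4.34-fold higher than DMSO replicate 2. By size, this rise was number 25 among the 284 genes that rose. Arg1 was thus already well above the dim level in the DMSO cells, which also received interleukin 4, and the rise was on top of that level.

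The direction of the Arg1 difference was the same in every fit, but its call was not. With 1 array left out, Arg1 passed only without DMSO replicate 2 (limma adjusted p = 0.0382). It did not pass without DMSO replicate 1 (0.053), retinoic acid replicate 1 (0.119) or retinoic acid replicate 2 (0.126), while the difference stayed between 2.12 and 2.75. The call also depends on the omission of 1625 probe sets without a gene name, each constant over the 4 arrays. With these kept, limma called 0 probe sets of any kind (6260 at an unadjusted p under 0.05), and Arg1 had an adjusted p of 0.123.

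**Figure D2:**
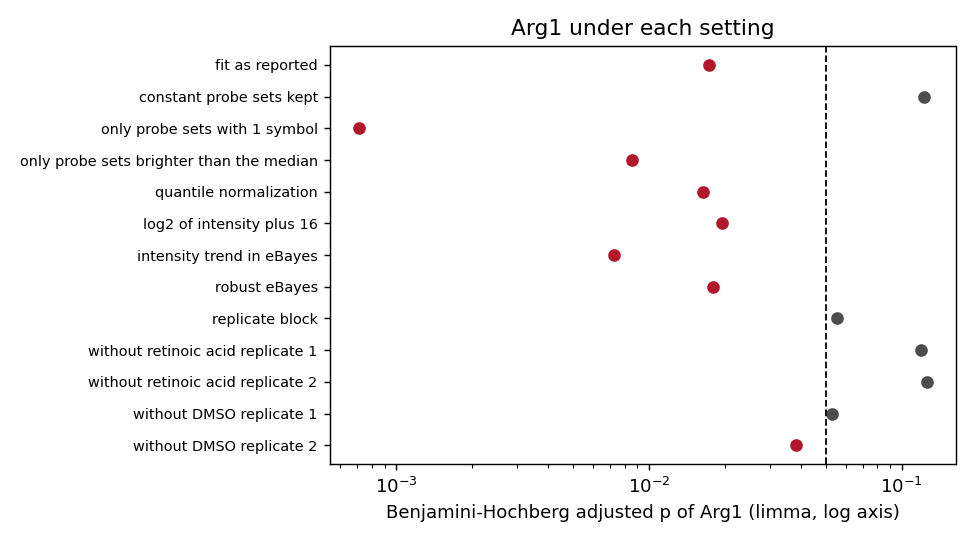
Benjamini-Hochberg adjusted p of Arg1 (limma, log axis) in the fit as reported and under 12 other settings, with the threshold of 0.05 as a dashed line; red points pass and grey points do not. The values range from 0.000711, among probe sets with 1 symbol, to 0.126, without retinoic acid replicate 2.

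Arg2, the mitochondrial arginase encoded by a separate gene, had 6.74 and 6.59 with retinoic acid and 6.59 and 6.72 with DMSO. The 4 values interleaved, close above the dim level. The difference was 0.01 ± 0.10 (SE; 95% interval -0.25 to 0.27; adjusted p = 0.98), so on this probe set a change of the size seen for Arg1 lay far outside the interval. Differences this near the dim level can be understated by background signal, which was not tested here.

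Nos2, the enzyme that competes with arginase for arginine, was at 6.19 and 6.06 with retinoic acid and at 6.13 and 6.11 with DMSO. All 4 arrays lay under the dim level. Its difference of -0.001 ± 0.086 (SE; limma adjusted p = 0.999) does not show whether the gene responded, since no level above background was seen in either group.

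The arginine-remaking enzymes had lower values with retinoic acid without passing the test. Ass1, argininosuccinate synthase, which joins citrulline and aspartate, had 8.35 and 8.44 with retinoic acid, against 8.78 and 8.86 with DMSO. Its groups did not overlap, and the difference was -0.43 ± 0.09 (SE; 95% interval -0.65 to -0.20; limma adjusted p = 0.116). Asl, argininosuccinate lyase, which releases arginine in the next step, had 9.22 and 9.01 with retinoic acid and 9.36 and 9.26 with DMSO. Those groups lay only 0.04 apart at their nearest arrays, and the difference was -0.19 ± 0.11 (SE; adjusted p = 0.525). Among probe sets with 1 symbol only, a smaller set with a tighter variance prior, Ass1 passed (limma adjusted p = 0.03).

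Sat1, spermidine/spermine N1-acetyltransferase, marks polyamines for breakdown or export. It was read at 11.09 and 10.85 with retinoic acid, against 10.42 and 10.50 with DMSO. Both retinoic acid arrays lay above both DMSO arrays, although they differed from each other by 0.24. The difference was 0.51 ± 0.11 (SE; 95% interval 0.21 to 0.80), or 1.42-fold, and it did not pass (limma adjusted p = 0.143; 0.0355 among probe sets with 1 symbol).

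Polyamine-making members differed little between groups, and their intervals were narrow. Odc1, ornithine decarboxylase, makes putrescine from ornithine and is the first committed enzyme of the route. It had 11.72 and 11.79 with retinoic acid and 11.64 and 11.64 with DMSO, a difference of 0.12 ± 0.08 (SE; 95% interval -0.09 to 0.32; limma adjusted p = 0.611). Srm, spermidine synthase, which acts on putrescine, had 11.93 and 11.94 with retinoic acid and 11.80 and 11.84 with DMSO. Its difference was likewise 0.12 ± 0.08 (SE; 95% interval -0.08 to 0.32; adjusted p = 0.592). For both genes the retinoic acid arrays lay just above the DMSO arrays, and the upper bounds were 1.25-fold. Oat, which moves ornithine toward glutamate and proline in mitochondria, had 10.84 and 10.86 with retinoic acid and 10.80 and 10.79 with DMSO. Its difference was 0.06 ± 0.07 (SE; 95% interval -0.14 to 0.25; limma adjusted p = 0.812). The intervals of Odc1, Srm and Oat therefore end well below the 1.86 at which the interval of Arg1 begins.

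**Figure D3:**
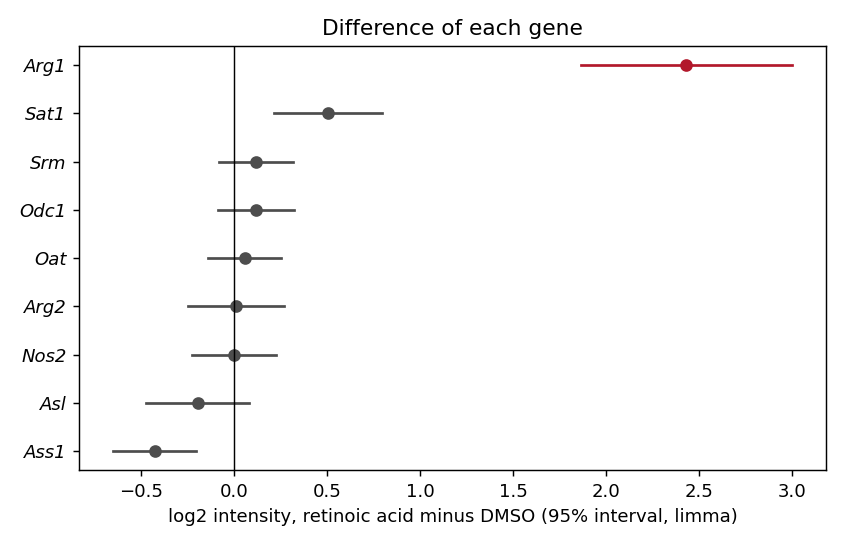
Difference in log2 intensity between retinoic acid and DMSO for each measured gene (points) with its 95% interval from limma (lines), n = 2 arrays a group; red passed an adjusted p of 0.05 and grey did not. Arg1 stands at 2.43, and the other 8 genes lie between -0.43 and 0.51.

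Genes around these members were taken from 9 lists holding 105 genes, of which 91 were measured. The lists were written with earlier results of these data known. Of the 91, 7 rose and 2 fell, against 1.28% and 1.79% of all genes, and 82 did not pass. None of the 9 that passed did so when any 1 array was left out. Their median log2 difference was 0.06, against 0.01 over all genes.

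Creatine synthesis also consumes arginine. Gatm, the amidinotransferase that moves the amidino group of arginine to glycine and frees ornithine, was read at 11.56 and 11.51 with retinoic acid, against 10.27 and 10.51 with DMSO. The groups were well apart, and Gatm rose 2.21-fold (1.14 ± 0.11 log2, SE; limma adjusted p = 0.0194). Gamt, which completes creatine by methylation, had 8.11 and 7.90 with retinoic acid and 7.51 and 7.53 with DMSO and did not pass (0.48 ± 0.10; adjusted p = 0.132). The creatine kinase Ckb went the other way without passing (-0.45 ± 0.12; adjusted p = 0.213), and the creatine transporter Slc6a8 differed by 0.11 ± 0.11. Of the 4 genes of this list, 1 rose and 0 fell.

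Among 11 measured genes of nitric oxide synthesis and its cofactor tetrahydrobiopterin, 1 rose and 10 did not pass. Consecutive steps of cofactor synthesis had opposite signs. Gch1, GTP cyclohydrolase, the rate-limiting first step, had 7.59 and 7.10 with retinoic acid, against 8.53 and 8.53 with DMSO. These groups lay far apart, but the retinoic acid arrays differed by 0.49 and Gch1 narrowly missed the threshold (-1.18 ± 0.17 log2, SE, or 2.27-fold lower; limma adjusted p = 0.0567). It passed among probe sets brighter than the median (0.0294), among those with 1 symbol (0.00584) and with an intensity trend (0.0386). It did not pass in the other 9 settings, among them every fit with 1 array left out (0.0645 to 0.299), the replicate block (0.123) and the constant probe sets kept (0.192). Pts, which carries out the next step, was at 9.63 and 9.48 with retinoic acid and at 8.73 and 8.80 with DMSO, and rose 1.73-fold (0.79 ± 0.09; adjusted p = 0.0327). Spr, the last enzyme, differed by 0.22 ± 0.08 (adjusted p = 0.357). Nos1 lay under the dim level in both groups, and Nos3 differed by 0.002 ± 0.155.

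Of 16 measured genes of polyamine synthesis, breakdown and control, 1 rose and 15 did not pass. The one was Azin2, an antizyme inhibitor that shields ornithine decarboxylase from its inhibitor antizyme, at 7.88 and 7.83 with retinoic acid and at 7.18 and 7.30 with DMSO (1.53-fold; 0.61 ± 0.08 log2, SE; limma adjusted p = 0.0469). The arrays did not overlap, and the call was close to the threshold. Its relative Azin1 differed by 0.05 ± 0.09. The antizyme Oaz1 had 8.83 and 8.11 with retinoic acid and 8.60 and 9.13 with DMSO, too scattered within both groups to compare (-0.39 ± 0.30). Smox, which oxidises spermine, differed by -0.25 ± 0.13 (adjusted p = 0.517). Eif5a, the translation factor whose hypusine residue is made from spermidine, differed by -0.10 ± 0.08. The lysosomal polyamine exporter Atp13a2 had 7.92 and 7.99 with retinoic acid against 8.34 and 8.49 with DMSO and did not pass (-0.46 ± 0.09, limma adjusted p = 0.116). Atp13a3 (0.22 ± 0.08), Oaz2 (0.26 ± 0.08) and Slc18b1 (0.38 ± 0.13, under the dim level in both groups) went the other way, also without passing. At an unadjusted p under 0.05 (limma) there were 5 of the 16, against 15.1% of all genes, and 11 of the 16 differences were positive.

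None of 13 genes of arginine and ornithine transport passed, with the smallest adjusted p at 0.0526 and 5 at an unadjusted p under 0.05. That smallest value belonged to Slc7a7, which exchanges cationic for neutral amino acids at the cell surface. It had 9.38 and 9.41 with retinoic acid and 8.88 and 8.84 with DMSO (0.54 ± 0.08 log2, SE). Slc7a2, the cationic amino acid transporter that supplies arginine to activated mouse macrophages, had 10.33 and 10.23 with retinoic acid, against 9.65 and 10.00 with DMSO. Those groups did not overlap, and DMSO replicate 1 was the lowest array for both Slc7a2 and Arg1 (Slc7a2 difference 0.46 ± 0.14; limma adjusted p = 0.266). The housekeeping carrier Slc7a1 differed by -0.18 ± 0.10, the heavy chain Slc3a2, which Slc7a7 needs as its partner, by -0.10 ± 0.09, and the mitochondrial ornithine carrier Slc25a15 by 0.04 ± 0.08.

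Of the 3 urea cycle genes outside the members, none passed. Otc and Cps1 lay under the dim level on the mean of both groups, and their differences were 0.08 ± 0.08 and -0.02 ± 0.16 (log2, SE). Nags, which makes the activator of Cps1, lay above it, at 7.22 and 7.36 with retinoic acid and at 7.16 and 7.08 with DMSO (0.17 ± 0.09; limma adjusted p = 0.525). Of 8 measured genes linking ornithine with proline and glutamate, only Glul passed. Glul, glutamine synthetase, had 9.76 and 9.82 with retinoic acid, against 9.16 and 9.23 with DMSO, and rose 1.51-fold (0.60 ± 0.08; limma adjusted p = 0.0449). A second, dimmer probe set of Glul differed by 0.08 (adjusted p = 0.879). Aldh18a1, the first enzyme of proline synthesis from glutamate, differed by -0.11 ± 0.08.

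**Figure D4:**
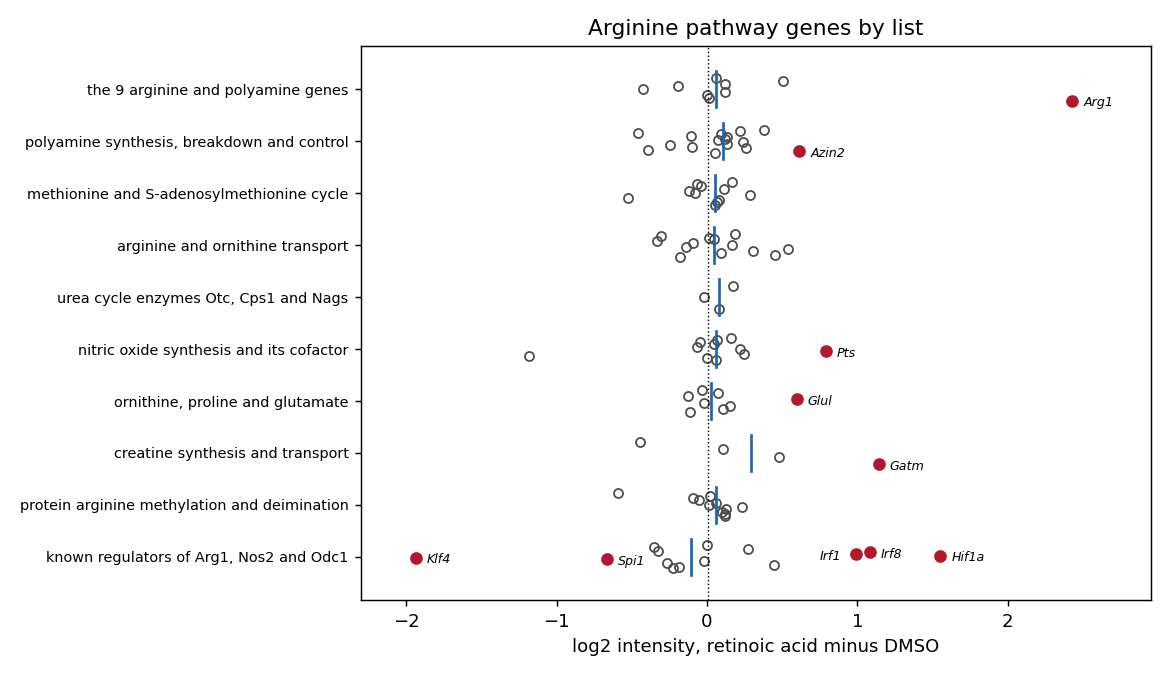
Log2 difference between retinoic acid and DMSO for the 9 members and for each gene of 9 surrounding lists; filled red points passed an adjusted p of 0.05 (limma) and are named, open points did not, the blue bar is the median of each list and the dotted line the median of all genes, 0.01. Arg1 lies at the far right, and calls are thinly spread over the metabolic lists.

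Transcription factors known to act on Arg1, Nos2 or Odc1, mostly from work in mouse macrophages, moved in both directions: of 14 measured, 3 rose, 2 fell and 9 did not pass, against 1.28% that rose and 1.79% that fell over all genes. At an unadjusted p under 0.05 there were 11 of the 14, against 15.1% of all genes. All 14 lay above the dim level in both groups, as did 12445 of all 22180 genes. The list was written with earlier results of these data known, so these counts are a description and no sign of enrichment. Hif1a, the hypoxia-inducible factor subunit that acts on both Arg1 and Nos2, rose 2.93-fold, with 11.93 and 11.79 in retinoic acid cells and 10.34 and 10.27 in DMSO cells (limma adjusted p = 0.00646). For its second, dimmer probe set the difference was 0.45, without a call (adjusted p = 0.249). The interferon regulatory factors Irf1 (1.99-fold, adjusted p = 0.014) and Irf8 (2.12-fold, adjusted p = 0.02), known for their action on Nos2, rose, and a dim second probe set of Irf8 differed by 0.13 (adjusted p = 0.658). Klf4, which cooperates with Stat6 at interleukin 4 targets, fell 3.83-fold, with 7.64 and 7.78 in retinoic acid cells and 9.51 and 9.78 in DMSO cells (limma adjusted p = 0.00826). The myeloid factor Spi1 was 1.58-fold lower (adjusted p = 0.0438). Stat6, the transducer of interleukin 4, differed by -0.23 ± 0.08, Cebpb by 0.44 ± 0.10 and Myc, an activator of Odc1, by 0.27 ± 0.09 (log2, SE), and these 3 did not pass.

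The genes whose pattern over the 4 arrays was most like that of Arg1 were sought among 12764 genes whose mean over the 4 arrays lay above the dim level, by Euclidean distance between centred log2 values. Nearest was Igf1, the insulin-like growth factor, at a distance of 0.0285. Igf1 had 10.65 and 10.63 with retinoic acid, against 7.86 and 8.50 with DMSO, so that it shared both the size of the rise and the low DMSO replicate 1 (2.46 ± 0.22 log2, SE; limma adjusted p = 0.0169). Next came Abcg3 (distance 0.112), which was under the dim level on the DMSO mean, and its place in this order rests partly on background. It was followed by the retinoid reductase gene Dhrs3 (distance 0.251; 6.30-fold) and the small GTPase gene Rab20 (0.357; 6.0-fold). All 4 were lowest in DMSO replicate 1, a likeness that the choice by distance selects for. These distances rest on 4 arrays and are a description.

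Other gene groups differed between the same arrays. Of 7 markers of monocyte-derived dendritic cells, Zbtb46, Irf4, Ccr7 and H2-Ab1 fell and 3 did not pass, all 7 lay above the dim level, and their summed intensity was 10273 to 10412 with retinoic acid and 19506 to 20195 with DMSO. Of 9 neutrophil genes only Cxcr2 passed, as lower (mean 10.25 with retinoic acid, 11.40 with DMSO). The neutrophil sums were 15507 to 15827 with retinoic acid and 17170 to 17806 with DMSO, with 7 genes lower and 2 higher. The 9 monocyte and macrophage markers held no call, and their sums were 33331 to 34730 with retinoic acid and 28998 to 30171 with DMSO. Of these 9, 6 were higher, with the largest differences for Itgam (0.66 log2), Adgre1 (0.63) and Fcgr1 (0.60). The 3 lower ones were Ccr2 (-0.34), Ly6c2 (-0.19) and Csf1r (-0.005). H2-Ab1, at 11.77 with retinoic acid and 13.31 with DMSO, was the brightest dendritic cell marker in both groups. Linear sums weigh bright genes most and are not shares of cells. Single calls fell to Cd79b among 4 B cell genes (sums 374 to 382 with retinoic acid, 292 to 294 with DMSO) and to Siglecf among 7 genes of basophils, mast cells and eosinophils (870 to 899 with retinoic acid, 752 to 770 with DMSO), both higher. In each of these lists the called gene was the brightest in both groups, so it weighs most in the sum. Of the 4 B cell genes, 3 were higher with retinoic acid, Cd79a (0.19 log2) among them, and 1 was lower, Ms4a1 (-0.18). Of the 7 others, 4 were higher, Epx (0.25) among them. The 3 lower ones were Mcpt8 (-0.25), Prss34 (-0.15) and Ms4a2 (-0.18). The measured T cell (5), NK cell (5), erythroid (2) and plasmacytoid dendritic cell (4) markers held no call. The part of these shifts in the Arg1 rise was not tested.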

How the data were processed

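The deposited table holds the authors' intensity of every probe set on each of the 4 arrays, made with Affymetrix Expression Console and RMA per the submitters' processing notes; versions and a genome build are not given in the sources used here, so no coordinates are printed. Intensities are on a linear scale and were transformed to log2 here. Of 41345 probe sets, 1625 with one constant value on all arrays and no annotated gene were left out and 39720 were tested. The platform annotation gave 23521 probe sets 1 symbol, 1814 several and 16010 none; all 9 measured members matched the RefSeq gene table (GRCm38.p6) in identifier and symbol. Where a gene had several probe sets, the brightest by mean over all arrays stood for it.

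Groups were compared with limma 3.58.1 (R 4.3.3, lmFit, eBayes, two-sided, no covariates, Benjamini-Hochberg over all probe sets tested, threshold 0.05). The fit was also run on simulated data with independent noise drawn from its own variance prior. Such data hold no shared array effects and no constant probe sets, so they cannot test how these alter the calls. With 2 arrays a group, the smallest exact permutation p is 0.333. The number of arrays limits the precision. Genes were named by rule: all members, 13 measured pathway genes fixed by symbol, every pathway gene past the threshold and the 4 nearest patterns to a called member; a few more were named after their values were seen. These are Gamt, Ckb, Slc6a8, Spr, Nos1, Nos3, Nags, Atp13a2, Atp13a3, Oaz2, Slc18b1, Slc7a7, Stat6, Cebpb and Myc. The genes in the closing observations were named in the same way. Members and lists were chosen with earlier results of these data known. Alternatives were other probe set filters, quantile normalization, an offset of 16, a variance trend or robust prior, a replicate block, another choice of probe set per gene and leaving out each array. Deviations from the group means of arrays with the same replicate number correlated at -0.251. With 2 arrays a group this is a single contrast, so it cannot settle whether the numbers pair the arrays.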

Additional observations from a re-analysis of the deposited data

How the results depend on the processing

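The count of changed probe sets, 831 in the fit as reported, was 0 with the constant probe sets kept, 1636 among probe sets with 1 symbol, 161 with the replicate block and 25 to 55 with 1 array left out. The count of members changed, 1 as reported both by gene and by probe set, was 0 with the constant probe sets kept, 3 among probe sets with 1 symbol, 0 with the replicate block (Arg1 adjusted p = 0.0553, limma) and 0 to 1 with 1 array left out. Other pathway genes changed, 9 as reported, were 0, 16 and 2 in those settings and 0 without any 1 array. The block was run because replicate numbers recur in both groups, but the labels do not say whether arrays with the same number share anything else. A crossed replicate block, added after seeing the data, gave 457 probe sets, 1 member and 4 other pathway genes. Filtering to probe sets brighter than the median, quantile normalization, the offset, the intensity trend, the robust prior and, for the counts of genes, the probe set of highest variance left all totals within 1.5 times of the reported ones. The filters also changed the number tested. Calls were 831 of 39720 probe sets as reported, 1216 of 19860 among brighter ones and 1636 of 23521 among those with 1 symbol. The share called was thus higher with both filters, and member calls there are read beside it. By direction, the filter to brighter probe sets moved the other pathway genes that fell to 5, against 2 as reported, and the probe sets that rose to 545, against 359.

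Signs turned only in genes that had not passed. With 1 array left out, the log2 difference ran from -0.0648 to 0.0878 for Arg2, from -0.0673 to 0.0648 for Nos2, from -0.0212 to 0.129 for Azin1 and from -0.179 to 0.134 for Cps1, and Nos2 was at 0.00291 with quantile normalization. Over 30 genes and up to 12 settings each, 287 of 357 values kept direction and side of the threshold, 57 lost the call, 5 gained it and 8 changed sign. Apart from fewer or more probe sets or arrays in the fit, the cause was not tested. Nos2, Otc and Cps1 lay under the dim level on the mean of both groups and Arg2 close above it, which limits what their values can show. Azin1 was bright, with means of 11.05 with retinoic acid and 10.99 with DMSO.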

Other observations

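Arginine residues in proteins are modified by methyltransferases, which use S-adenosylmethionine, and by deiminases, which make citrulline. None of 11 measured genes of these families passed (smallest limma adjusted p = 0.0651; 1 at an unadjusted p under 0.05), and 8 of the 11 differences were positive, as were 11659 of 22180 over all genes. Padi4, the deiminase of granulocytes and monocytes, had 6.40 and 6.52 with retinoic acid and 7.0 and 7.11 with DMSO, a difference of -0.59 ± 0.09 (log2, SE). Prmt1, the main asymmetric methyltransferase, differed by 0.12 ± 0.08, and Prmt5, the main symmetric one, by 0.13 ± 0.09. Of 11 genes of the methionine cycle, which supplies S-adenosylmethionine for spermidine synthesis, none passed either (smallest adjusted p = 0.0828; 2 at an unadjusted p under 0.05). That smallest value was for Ahcyl2, a relative of the adenosylhomocysteine hydrolase Ahcy, at 7.82 and 7.81 with retinoic acid and 8.26 and 8.42 with DMSO. Ahcy itself differed by 0.06 ± 0.10.

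The measured genes that neighbour Arg1 in the RefSeq gene table were looked at after the rise was seen. Enpp3 and Med23 on one side differed by -0.04 ± 0.13 and 0.13 ± 0.08, and Akap7 and Epb41l2 on the other by 0.21 ± 0.09 and -0.22 ± 0.08 (log2, SE). None of the 4 passed (limma adjusted p = 0.329 to 0.931), and Enpp3 lay under the dim level in both groups.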
